A study of Mus musculus with 24 samples.

Results

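This section follows 8 mouse genes across 24 microarrays of B16 melanoma tumours: Ccn1, Ccn2, Ccn3, Ccn4, Thbs1, Ankrd1, Amotl2 and Axin2. They are 8 of the 19938 genes that the arrays measured through at least 1 probeset (a group of probes read as 1 value) annotated to a single gene. The genes were chosen by symbol, with the brightest probeset on average taken for each. Every one of the 8 had exactly 1 such probeset, so brightness decided nothing. Because the set was put together with earlier results of these arrays known, the p-values below describe these tumours and are no independent support for the choice of genes.

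Mice aged 6 to 12 weeks received 500000 B16 cells, a mouse melanoma line, under the skin. In the Mock group, 10 to 14 days later, the mice were irradiated over the whole body with 5 Gy and infused with 100000 CD8+ T cells of the pmel-1 kind (T cells carrying a receptor for the melanoma antigen gp100) that had not been transduced. The IL-12TD group had the same irradiation and the same number of pmel-1 CD8+ T cells transduced with IL-12, a cytokine that drives interferon gamma production. The untreated group received tumour cells, and its labels state neither irradiation nor T cells. By their labels IL-12TD and Mock differ in the transduction, while either against no treatment can also carry irradiation and cell transfer. Tumours were taken at day 3 or day 7 and lysed as suspensions of all their cells, with 4 biological replicates in each of the 6 groups. For the Mock day 7 arrays the treatment text gives day 3 and all their other labels give day 7, so they were kept at day 7. No label names a batch or scan date, and any batch that follows the day of collection or the treatment cannot be told apart from it. In such whole-tumour RNA, fewer cells of a type and less RNA per cell cannot be told apart either.

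CCN proteins are secreted matricellular proteins: they sit in the extracellular matrix, bind integrins and proteoglycans, and tell cells about adhesion and mechanical load without being structural fibres themselves. Ccn1 (formerly Cyr61) and Ccn2 (formerly Ctgf) are textbook targets of YAP and TAZ, coactivators that the kinases of the Hippo pathway keep out of the nucleus and that bind DNA through TEAD factors. Ankrd1 and Amotl2 are further YAP targets, and the Amotl2 protein in turn holds YAP in the cytoplasm. Thbs1 encodes thrombospondin 1, a matrix protein that YAP, TGF-beta and inflammatory signals can all raise. Axin2 and Ccn4 (formerly Wisp1) are known as targets of beta-catenin, the effector of Wnt signalling, and Ccn3 (formerly Nov) often opposes Ccn2.

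Promoter sequences are shown because TEAD factors recognise a short DNA word and the members differ in carrying it. RefSeq promoters of build GRCm38.p6, from 250 bases before to 50 bases after a start of transcription, matched 4 of the 8 members and are printed 5′ to 3′ along the gene's strand. Entries for Ccn2, Ccn3, Ccn4 and Thbs1 did not match. Capitals mark each match to the TEAD motif GGAATG on either strand (CATTCC is the same motif on the opposite strand). The windows lie at chr3:145649936-145650235 on the minus strand for Ccn1, chr19:36119795-36120094 on the minus strand for Ankrd1, chr9:102717554-102717853 on the plus strand for Amotl2 and chr11:108920099-108920398 on the plus strand for Axin2. In Amotl2 and Axin2 the annotated start used here lies inside the span of the gene.
Ccn1: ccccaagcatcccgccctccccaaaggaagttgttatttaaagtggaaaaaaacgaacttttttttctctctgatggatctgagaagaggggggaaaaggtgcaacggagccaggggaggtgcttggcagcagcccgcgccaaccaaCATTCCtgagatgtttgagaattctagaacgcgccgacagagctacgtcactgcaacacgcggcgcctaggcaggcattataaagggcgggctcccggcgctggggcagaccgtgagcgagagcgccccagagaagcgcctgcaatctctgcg
Ankrd1: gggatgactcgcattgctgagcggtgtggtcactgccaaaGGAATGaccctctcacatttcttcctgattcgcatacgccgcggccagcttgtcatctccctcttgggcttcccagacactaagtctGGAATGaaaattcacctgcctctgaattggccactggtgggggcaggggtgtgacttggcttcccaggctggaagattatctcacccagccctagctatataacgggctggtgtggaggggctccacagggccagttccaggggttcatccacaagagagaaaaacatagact
Amotl2: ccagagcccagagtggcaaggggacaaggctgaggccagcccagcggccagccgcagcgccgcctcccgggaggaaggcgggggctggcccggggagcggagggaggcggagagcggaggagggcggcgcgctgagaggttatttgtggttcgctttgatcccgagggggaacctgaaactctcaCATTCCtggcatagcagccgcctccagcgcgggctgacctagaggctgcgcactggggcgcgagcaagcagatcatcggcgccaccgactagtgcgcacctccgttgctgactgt
Axin2: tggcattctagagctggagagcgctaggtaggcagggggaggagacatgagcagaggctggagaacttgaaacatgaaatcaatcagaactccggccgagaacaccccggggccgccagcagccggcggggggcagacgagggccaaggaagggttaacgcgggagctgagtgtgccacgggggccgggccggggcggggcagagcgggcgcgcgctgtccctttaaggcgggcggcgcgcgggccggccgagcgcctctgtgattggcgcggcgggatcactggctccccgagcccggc
Ccn1 held 1 match, whose first base lay at position -103 from the start. Ankrd1 held 2 matches, at -210 and -123, and Amotl2 held 1, at -65. No GGAATG was in the Axin2 window. The TCF/LEF motif CTTTGA, the word read by the partners of beta-catenin, was found on either strand only in the Amotl2 window, at -97 and apart from its TEAD match, and the AP-1 motif TGANTCA was in none of the 4. Among 32851 promoters of the same length in the table, 14.7% held GGAATG at least once and 1.36% held it 2 or more times, 5257 promoters held CTTTGA and 7.81% held TGANTCA. A match is a description of letters and not a site of binding.

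All levels below are log2 intensities (the RMA summary of a probeset), on which a difference of 1 is a doubling, given for replicates 1, 2, 3 and 4 in that order. A gene was called where limma, fitted over the 6 groups with Benjamini-Hochberg adjustment over all 19938 genes, gave an adjusted p under 0.05. Errors of differences are standard errors with n = 4 per group. The defining markers of a B16 tumour were in place, since Pmel, the melanosome protein that pmel-1 T cells recognise, averaged 11.64 and Dct, a pigment enzyme, 12.68. Of the 13 listed melanocyte markers the dimmest, Ednrb, averaged 5.11. Between arrays of a group the mean correlation ran from 0.967 to 0.99, lowest for no treatment day 7 replicate 3. Of the 8 members, 7 passed a filter that keeps genes above the 40th percentile of their array on at least 4 arrays. Ankrd1 did not pass it, so its values lie near the dim end of the array. Ccn3 passed it through Mock and untreated arrays, and lay below that percentile on all 8 IL-12TD arrays.

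**Figure D1:**
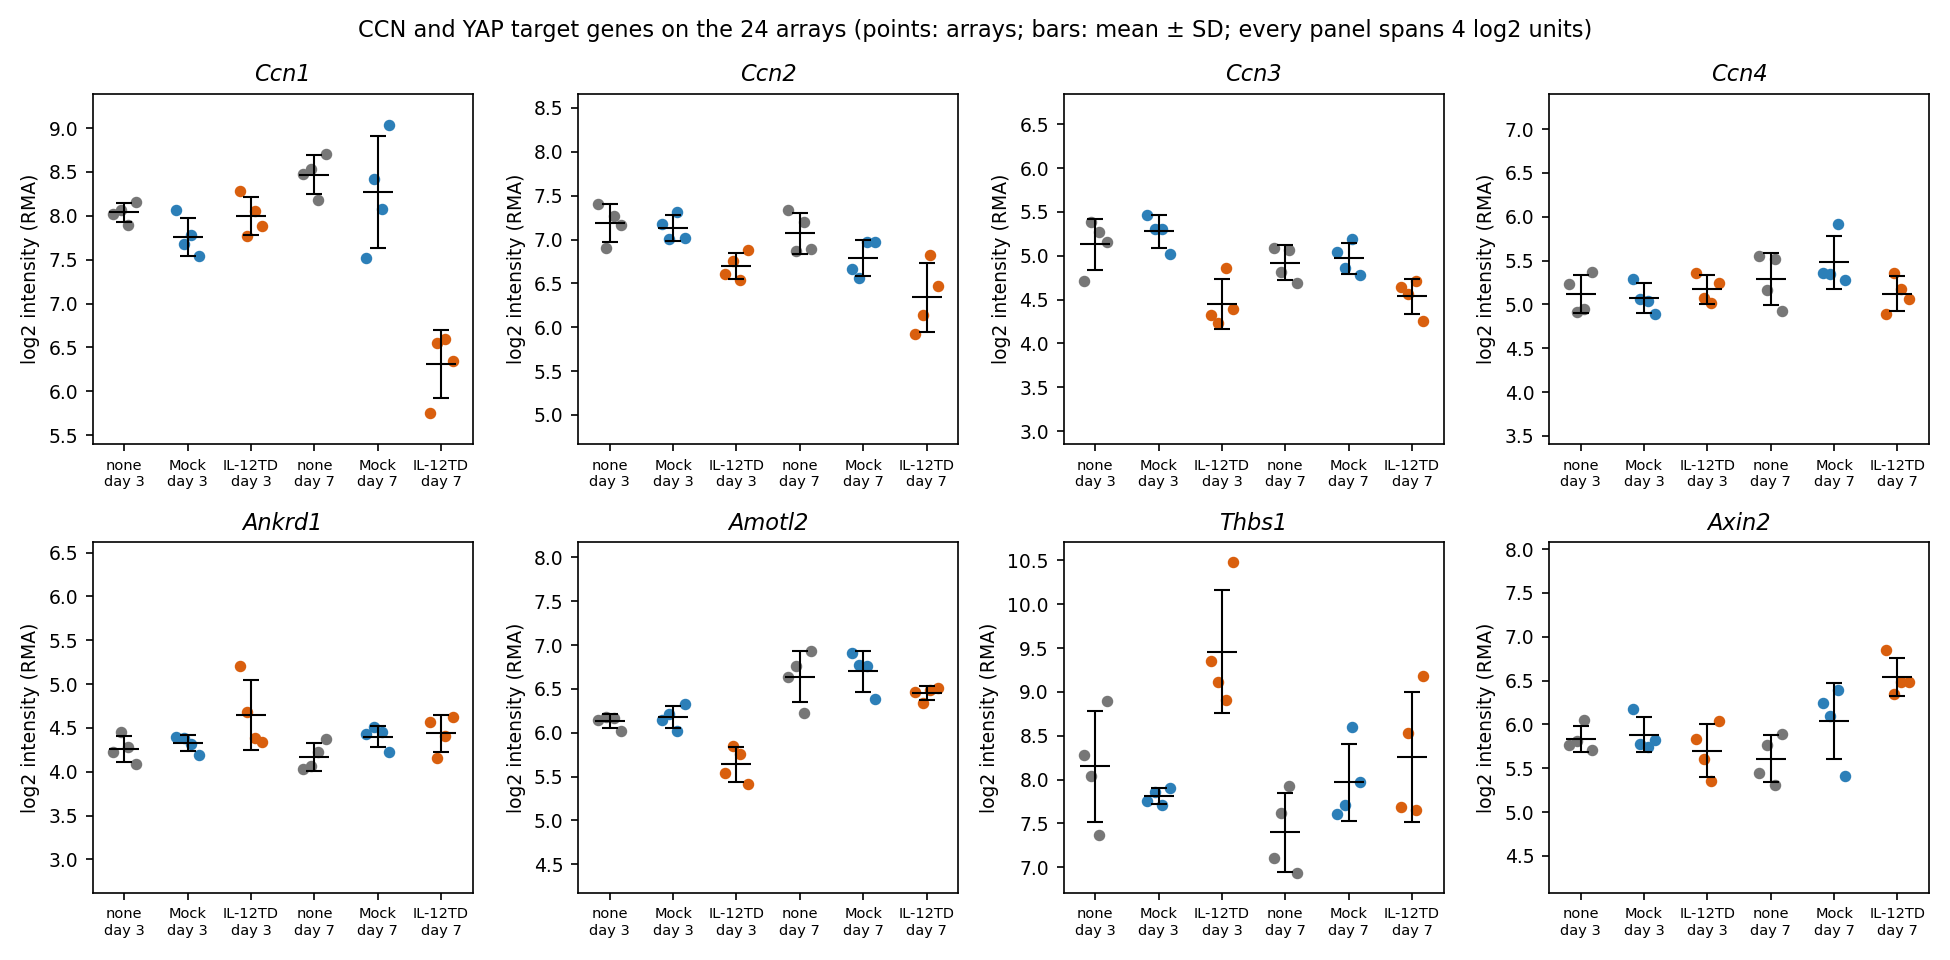
Log2 intensity of each member (y axis, every panel spans 4 log2 units) in the 6 groups (x axis; none is no treatment), with a point per array and bars for the mean ± SD of 4 arrays. The 4 IL-12TD day 7 arrays of Ccn1 lie between 5.75 and 6.60, below the other 20 arrays, and the 4 IL-12TD day 3 arrays of Thbs1 lie between 8.91 and 10.48.

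The members did not move as a block. At day 3 the IL-12TD tumours differed from Mock in 4 of the 8 members: Thbs1 was higher, and Ccn2, Ccn3 and Amotl2 were lower. The background was 43.2% of all genes called, 17.3% higher and 25.9% lower. At day 7 another combination of 4 passed: Axin2 was higher, and Ccn1, Ccn2 and Ccn3 were lower. There the background was 21.7%, of which 12.9% higher and 8.83% lower. The median difference over the 8 members was -0.04 at day 3 and -0.30 at day 7, beside 0.02 and -0.08 over all genes. The day 7 count was the less stable one. It was 1 without IL-12TD day 7 replicate 1 or 4, and 2 without IL-12TD day 7 replicate 2 or any of Mock day 7 replicates 2, 3 and 4. Without the other 2 arrays it was 3.

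Ccn1, a secreted integrin ligand, immediate early gene and target of YAP, had the lowest levels of the series in IL-12TD tumours at day 7. Its 4 arrays there read 5.75, 6.55, 6.60 and 6.35. The Mock day 7 arrays read 7.52, 8.42, 8.08 and 9.04, and the untreated day 7 arrays 8.48, 8.53, 8.18 and 8.70. At day 3 the groups lay close together. The IL-12TD arrays read 8.28, 7.77, 8.06 and 7.88, the Mock arrays 8.07, 7.68, 7.78 and 7.54, and the untreated arrays 8.02, 8.07, 7.90 and 8.16. Every IL-12TD day 7 array was below each of the other 20 arrays, and the day 3 groups overlapped. Ccn1 thus fell by 1.95 ± 0.22 against Mock at day 7 (3.88-fold lower, adjusted p = 1.1e-07), the 3rd lowest difference of all 19938 genes. Only Alas2, an erythroid heme synthesis enzyme (-2.46), and Scd1, a fatty acid desaturase (-2.02), were lower, and they are named here for their rank. Against no treatment, a comparison that shares the IL-12TD arrays, the difference was -2.16 ± 0.22 (adjusted p = 1.22e-08). At day 3 the difference from Mock was 0.23 with a 95% interval from -0.21 to 0.67, and that from no treatment -0.04, from -0.49 to 0.40. The interaction, the day 7 difference from Mock less the day 3 difference, was -2.18 ± 0.31 (adjusted p = 2.09e-05). Leaving out single arrays kept the day 7 difference from Mock between -2.20 and -1.69. Pan-leukocyte markers were called higher in IL-12TD than in Mock for 12 of 12 at day 7 and for 12 of 12 at day 3. Their part in the Ccn1 result was not tested.

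Ccn2, the fibrosis-linked relative of Ccn1, was lower in IL-12TD tumours at both days by smaller amounts. At day 3 its IL-12TD arrays read 6.61, 6.76, 6.54 and 6.88, against 7.18, 7.01, 7.31 and 7.02 in Mock and 7.41, 6.90, 7.27 and 7.17 without treatment. Its day 7 arrays in IL-12TD tumours read 5.92, 6.14, 6.82 and 6.47, against 6.66, 6.56, 6.97 and 6.97 in Mock and 7.34, 6.87, 7.20 and 6.89 without treatment. All day 3 IL-12TD arrays were below all Mock and untreated arrays of that day, while at day 7 they overlapped with Mock but not with the untreated arrays. The differences from Mock were -0.43 ± 0.16 (adjusted p = 0.0322) at day 3 and -0.45 ± 0.16 (adjusted p = 0.046) at day 7. Both calls rest on single arrays. The day 3 call was lost without replicate 1 or 3 of either group, with adjusted p from 0.0642 to 0.0957. The day 7 call was lost without IL-12TD day 7 replicate 1, 2 or 4, and without replicate 3 or 4 of Mock at that day, with adjusted p from 0.0598 to 0.207. A second quantile normalization brought the day 3 difference from Mock to -0.11 (adjusted p = 0.665). Against no treatment the day 7 difference was -0.73 ± 0.16 (adjusted p = 0.00121), and it stayed called without any single array of the compared groups. The interaction between day and treatment was -0.02, with a 95% interval from -0.49 to 0.45. After the second quantile normalization it was -0.50 (adjusted p = 0.131), with a day 7 difference of -0.61.

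Ccn3, a CCN protein found in neural and muscle lineages and reported to restrain growth, was lower in IL-12TD tumours, with the larger difference at day 3. Its IL-12TD day 3 arrays read 4.32, 4.23, 4.86 and 4.39, against 5.47, 5.31, 5.31 and 5.02 in Mock and 4.71, 5.38, 5.27 and 5.16 without treatment. At day 7 the IL-12TD arrays read 4.64, 4.56, 4.71 and 4.25, against 5.04, 4.86, 5.19 and 4.78 in Mock and 5.09, 4.81, 5.07 and 4.69 without treatment. The IL-12TD and Mock arrays did not overlap at either day, and IL-12TD overlapped with no treatment at both. Ccn3 fell by 0.83 ± 0.16 against Mock at day 3 (adjusted p = 0.000137). Its IL-12TD arrays lay between the 21.3 and 33.5 percentiles of all genes on their array at day 3 and between 23.6 and 32.1 at day 7, as dim as Ankrd1, while its Mock day 3 arrays lay between 42.7 and 50.2. The day 7 difference was -0.43 ± 0.16 (adjusted p = 0.0477) and did not stand when IL-12TD day 7 replicate 1, 2 or 4 was left out, nor without replicate 1, 2 or 3 of Mock at that day, with adjusted p from 0.0651 to 0.182. The change in the effect between days was 0.40, from -0.05 to 0.85.

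Ccn4, induced by Wnt signals in many tumours, differed little between the groups. At day 3 its 12 arrays ran from 4.89 to 5.37. Its IL-12TD arrays at day 7 read 4.89, 5.36, 5.18 and 5.06, the Mock arrays 5.36, 5.35, 5.92 and 5.28, and the untreated arrays 5.55, 5.16, 5.52 and 4.92. All of its groups overlapped with the next one in the order of their means. The differences of IL-12TD from Mock were 0.10, from -0.22 to 0.42, at day 3 and -0.36, from -0.68 to -0.03, at day 7 (adjusted p = 0.107). Mock replicate 3 stood above the other 3 Mock day 7 arrays, and without it the day 7 difference was -0.21. Of 9 alternative limma fits of that difference, 8 kept it uncalled, and the lowest adjusted p was 0.0206, with differences from -0.42 to -0.36.

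Thbs1, the thrombospondin that activates TGF-beta and binds CD36 and CD47, gave the highest member response at day 3. Its IL-12TD day 3 arrays read 9.35, 9.11, 8.91 and 10.48. The Mock day 3 arrays read 7.76, 7.86, 7.71 and 7.90, and the untreated day 3 arrays 8.28, 8.04, 7.37 and 8.90. The IL-12TD arrays were above every Mock and untreated array of day 3, replicate 4 far above the other 3. By day 7 the IL-12TD arrays had spread to 7.69, 8.53, 7.65 and 9.18. The Mock arrays were at 7.61, 7.71, 8.60 and 7.97 and the untreated arrays at 7.11, 7.62, 7.93 and 6.94, and the 3 groups overlapped. Thbs1 rose by 1.65 ± 0.33 against Mock at day 3 (3.15-fold, adjusted p = 0.000267), which placed it 221st from the top of all genes. Without IL-12TD day 3 replicate 4 the rise was 1.31 and stayed called. At day 7 the difference from Mock was 0.29, with a 95% interval from -0.39 to 0.97, and that from no treatment 0.86, from 0.19 to 1.54 (adjusted p = 0.0659). The latter was called without no treatment day 7 replicate 3 (1.04) or without IL-12TD day 7 replicate 1 (1.05) or 3 (1.07). The interaction was -1.37 ± 0.47 (adjusted p = 0.0216), but it missed the threshold without IL-12TD day 3 replicate 4, IL-12TD day 7 replicate 1 or 3, or Mock day 7 replicate 3, at adjusted p from 0.0541 to 0.0596.

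Ankrd1, a nuclear cofactor named for its ankyrin repeats and best known from stretched heart muscle, was dim and nearly level. Its IL-12TD day 3 arrays read 5.21, 4.68, 4.39 and 4.34, with replicate 1 above the rest. The Mock day 3 arrays read 4.40, 4.39, 4.32 and 4.19, and the untreated day 3 arrays 4.23, 4.45, 4.28 and 4.09. At day 7 all 12 arrays lay between 4.03 and 4.63. The groups overlapped throughout the order of their means. Against Mock the difference was 0.33 ± 0.15 at day 3 (adjusted p = 0.0749) and 0.04, from -0.27 to 0.34, at day 7. Against no treatment at day 3 it was 0.39 ± 0.15 and called (adjusted p = 0.036), yet without IL-12TD day 3 replicate 1 it was 0.21 (adjusted p = 0.212). Leaving out IL-12TD replicate 2 or untreated replicate 1, 3 or 4 of day 3 also ended that call, with adjusted p from 0.061 to 0.102. The day 3 difference from Mock was called without IL-12TD day 3 replicate 3 (0.42) or 4 (0.43).

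Amotl2, the junction protein that sequesters YAP and is itself induced by it, moved with day as well as with treatment. The IL-12TD day 3 arrays read 5.54, 5.85, 5.76 and 5.42, the Mock day 3 arrays 6.15, 6.21, 6.02 and 6.33, and the untreated day 3 arrays 6.15, 6.18, 6.17 and 6.02. At day 7 the IL-12TD arrays read 6.47, 6.34, 6.49 and 6.51, the Mock arrays 6.91, 6.77, 6.76 and 6.38, and the untreated arrays 6.64, 6.76, 6.23 and 6.93. The 4 IL-12TD day 3 arrays were below all other 20 arrays, and in each treatment every day 7 array was above every day 3 array. Amotl2 fell by 0.54 ± 0.14 against Mock at day 3 (adjusted p = 0.00248). At day 7 the difference was -0.25, from -0.53 to 0.03, and it was called after a second quantile normalization (-0.40, adjusted p = 0.0241). From day 3 to day 7 it rose by 0.51 ± 0.14 without treatment, by 0.53 ± 0.14 in Mock and by 0.81 ± 0.14 in IL-12TD tumours (adjusted p = 0.0043, 0.00237 and 2.88e-05).

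Axin2, a scaffold that promotes destruction of beta-catenin and is switched on by it, was highest in IL-12TD tumours at day 7. Those arrays read 6.85, 6.35, 6.48 and 6.48. The Mock day 7 arrays read 6.24, 6.10, 6.39 and 5.41, and the untreated day 7 arrays 5.45, 5.77, 5.31 and 5.89. At day 3 the 12 arrays ran from 5.35 to 6.18 with the groups overlapping. At day 7 a single Mock array reached into the IL-12TD range, and no untreated array did. Axin2 rose by 0.94 ± 0.18 against no treatment at day 7 (1.91-fold, adjusted p = 0.000284), a call that stood without any single array of the compared groups. Against Mock the rise was 0.50 ± 0.18 (adjusted p = 0.0453). That call was lost without IL-12TD day 7 replicate 1, 3 or 4, and without replicate 2 or 4 of Mock at that day, and the difference was 0.29 without Mock replicate 4, the low array. The day 3 difference from Mock was -0.18, from -0.55 to 0.19, and the interaction 0.68 ± 0.25 (adjusted p = 0.0329). The interaction missed the threshold without IL-12TD day 3 replicate 2 or 3, IL-12TD day 7 replicate 1, Mock day 3 replicate 1 or Mock day 7 replicate 4, with adjusted p from 0.0552 to 0.0939.

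**Figure D2:**
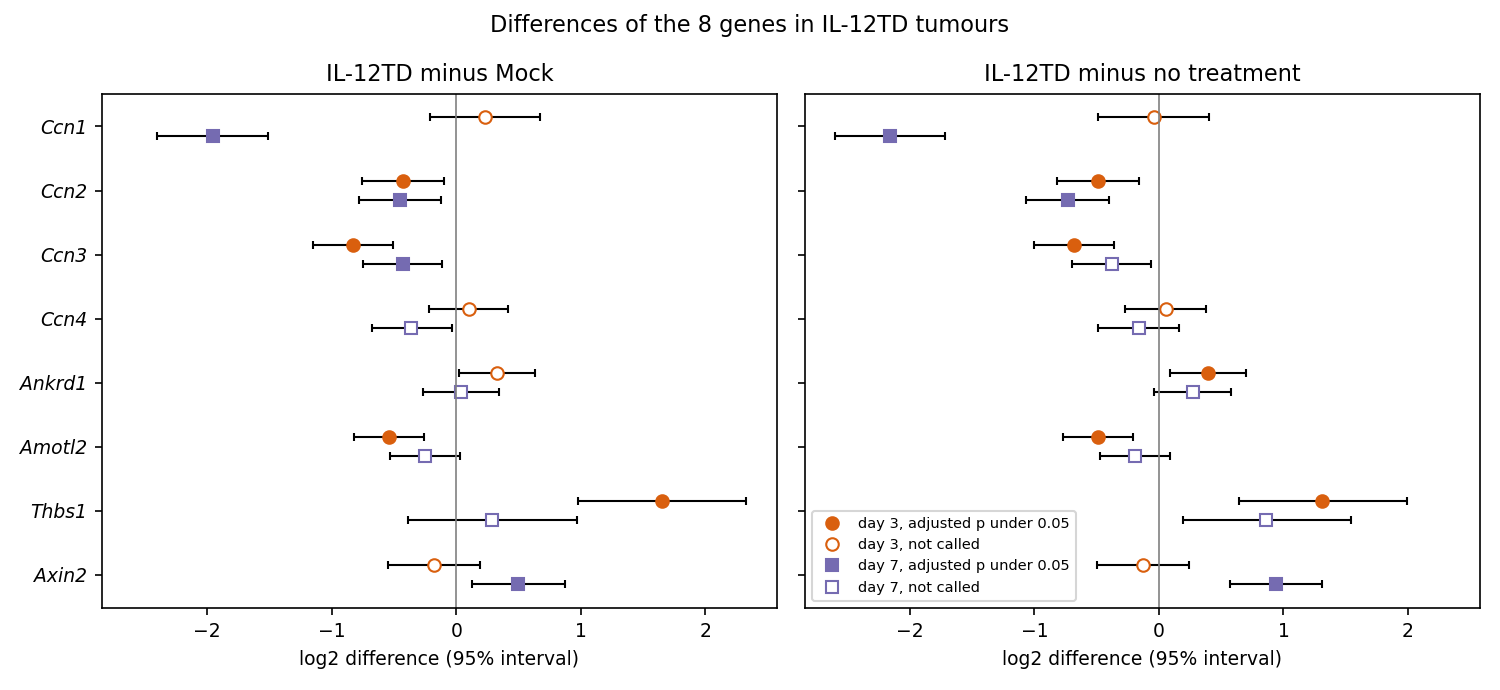
Log2 difference (x axis) of IL-12TD from Mock (left) and from no treatment (right) for each member (y axis) at day 3 (circles) and day 7 (squares), with 95% intervals and filled symbols where the adjusted p was under 0.05. Ccn1 stands apart at day 7 with -1.95 and -2.16, and Thbs1 at day 3 with 1.65 and 1.31.

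The remaining comparisons put these values in order. Against no treatment, IL-12TD tumours differed in 5 of the 8 members at day 3 (background 41.9%) and in 3 at day 7 (background 20.4%). At day 3 these were Thbs1 and Ankrd1, higher, and Ccn2, Ccn3 and Amotl2, lower, and the count was 3 without no treatment day 3 replicate 1. Ccn2 was -0.49 ± 0.16 (adjusted p = 0.0164) and missed the threshold without that array or without IL-12TD day 3 replicate 3, at adjusted p = 0.0535 and 0.0525. At day 7 they were Axin2, higher, and Ccn1 and Ccn2, lower. Between Mock and untreated tumours no member was called: limma called 0 of 8 at day 3 (background 0%) and 0 of 8 at day 7 (background 0%). At an unadjusted p under 0.05 it picked 329 genes (1.65% of all) and 0 of 8 members at day 3. At day 7 it picked 2767 genes (13.9% of all) and 1 of 8 members, Axin2 (0.43, from 0.06 to 0.80), which is near the share of all genes. The widest Mock intervals were those of Thbs1, from -1.02 to 0.34 at day 3 and from -0.10 to 1.25 at day 7.

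The days were also compared within each treatment. In untreated and Mock tumours a smaller share of members than of all genes was called. From day 3 to day 7, 1 member was called without treatment (Amotl2, background 35.5%), 2 in Mock (Amotl2 and Ccn4, background 50.9%) and 4 in IL-12TD (background 41.8%). Without no treatment day 3 replicate 3, or without day 7 replicate 3, Thbs1 was called too among the untreated, at -1.01 and -0.92. In Mock, Ccn4 was 0.41 ± 0.16 higher at day 7 (adjusted p = 0.0336), and the call was lost without Mock day 3 replicate 2, 3 or 4 or Mock day 7 replicate 3, with differences from 0.26 to 0.40. In IL-12TD tumours Ccn1 fell by 1.68 ± 0.22 (adjusted p = 8.49e-07) and Thbs1 fell by 1.20 ± 0.33 (adjusted p = 0.00472), while Amotl2 and Axin2 rose, the latter by 0.84 ± 0.18 (adjusted p = 0.000498). In the untreated and Mock tumours Ccn1 differed by 0.43, from -0.01 to 0.88, and by 0.50, from 0.06 to 0.94, in the opposite direction and without passing the threshold. The Mock difference of Ccn1 was called without Mock day 3 replicate 1 (0.60) or Mock day 7 replicate 1 (0.75). The effect of IL-12TD against Mock changed between days for 3 of the 8 members, Ccn1, Thbs1 and Axin2 (background 42.5%), and for 1 of them without IL-12TD day 7 replicate 1.

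Measured against the scatter among replicates, Ccn1 and Amotl2 varied most between groups. The range of the 6 group means was 2.16 for Ccn1, 6.2 times the SD within groups, and 1.06 for Amotl2, 5.7 times. For Thbs1 the range of 2.06 was only 3.7 times, since its arrays scattered more within groups. Ccn4 had the narrowest range, 0.41 or 1.8 times. Within the order of group means, neighbouring groups overlapped for all members except Ccn1 and Amotl2. For Ccn1 the gap lay between Mock day 3 and IL-12TD day 7 (1.45). For Amotl2 gaps lay between IL-12TD day 7 and Mock day 3 (0.27) and between untreated and IL-12TD day 3 (0.49). Such gaps were not counted over all genes, so they do not set Ccn1 and Amotl2 apart from genes outside the set.

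Other genes of the pathway were counted at both days. For this and each later list the background for IL-12TD against Mock was 43.2% at day 3 and 21.7% at day 7. These shares are those of the fit described above. A second quantile normalization called fewer of all genes at day 3, so list counts after it have a lower background. Of 22 further YAP and TAZ target genes measured, 3 were called higher and 16 lower in IL-12TD than in Mock at day 3, with a median difference of -0.49 beside 0.02 over all genes. At day 7, 2 were higher and 4 lower with a median of 0.06, and 8 were higher and 4 lower without Mock day 7 replicate 1. Axl, a receptor kinase of tumour and myeloid cells, rose by 1.54 ± 0.24 at day 3 and 2.65 ± 0.24 at day 7 (adjusted p = 1.5e-05 and 3.39e-09). Dock5, a regulator of cell spreading, fell by 0.90 ± 0.12 at day 3 (adjusted p = 2.63e-06), and Birc5, which encodes survivin, fell by 0.92 ± 0.15 at day 7 (adjusted p = 4.03e-05). After a second quantile normalization the day 3 list median was -0.27, with 3 higher and 10 lower.

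Among 23 genes of the Hippo pathway itself, 5 of which are also in the target list, 19 were called lower and 0 higher at day 3 (median -0.52), and 10 were lower and 0 higher after a second quantile normalization. Yap1, the coactivator, fell by 0.48 ± 0.12 (adjusted p = 0.00244) and Wwtr1, which encodes TAZ, fell by 0.53 ± 0.12 (adjusted p = 0.000922). Both calls were lost after the second quantile normalization, at -0.19 and -0.26. At day 7, 5 were higher and 5 lower, and 2 were higher and 2 lower without Mock day 7 replicate 3 or without IL-12TD day 7 replicate 1 or 4. Without Mock day 7 replicate 2 the counts were 3 and 3, and without replicate 4 they were 2 higher and 3 lower. Of the 4 TEAD factors, which carry YAP to DNA, Tead2 was lower at both days (-1.23 ± 0.14 and -1.22 ± 0.14, adjusted p = 1.21e-07 and 1.67e-07). Tead1 was lower at day 3 (-0.79 ± 0.15, adjusted p = 0.000155) and higher at day 7 (0.72 ± 0.15, adjusted p = 0.000911). Tead4 was lower at day 7 (-0.68 ± 0.15, adjusted p = 0.00158) and differed by -0.19 ± 0.15 at day 3 (adjusted p = 0.302). Tead3 differed by -0.16 ± 0.13 at day 3 (adjusted p = 0.328) and was lower at day 7 (-0.40 ± 0.13, adjusted p = 0.0321), a call lost without IL-12TD day 7 replicate 1 or 4, or Mock day 7 replicate 3 or 4 (adjusted p from 0.0628 to 0.128). At day 7 Yap1 differed by 0.15 ± 0.12 (adjusted p = 0.373). The part of these genes in the differences of the members was not tested.

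**Figure D3:**
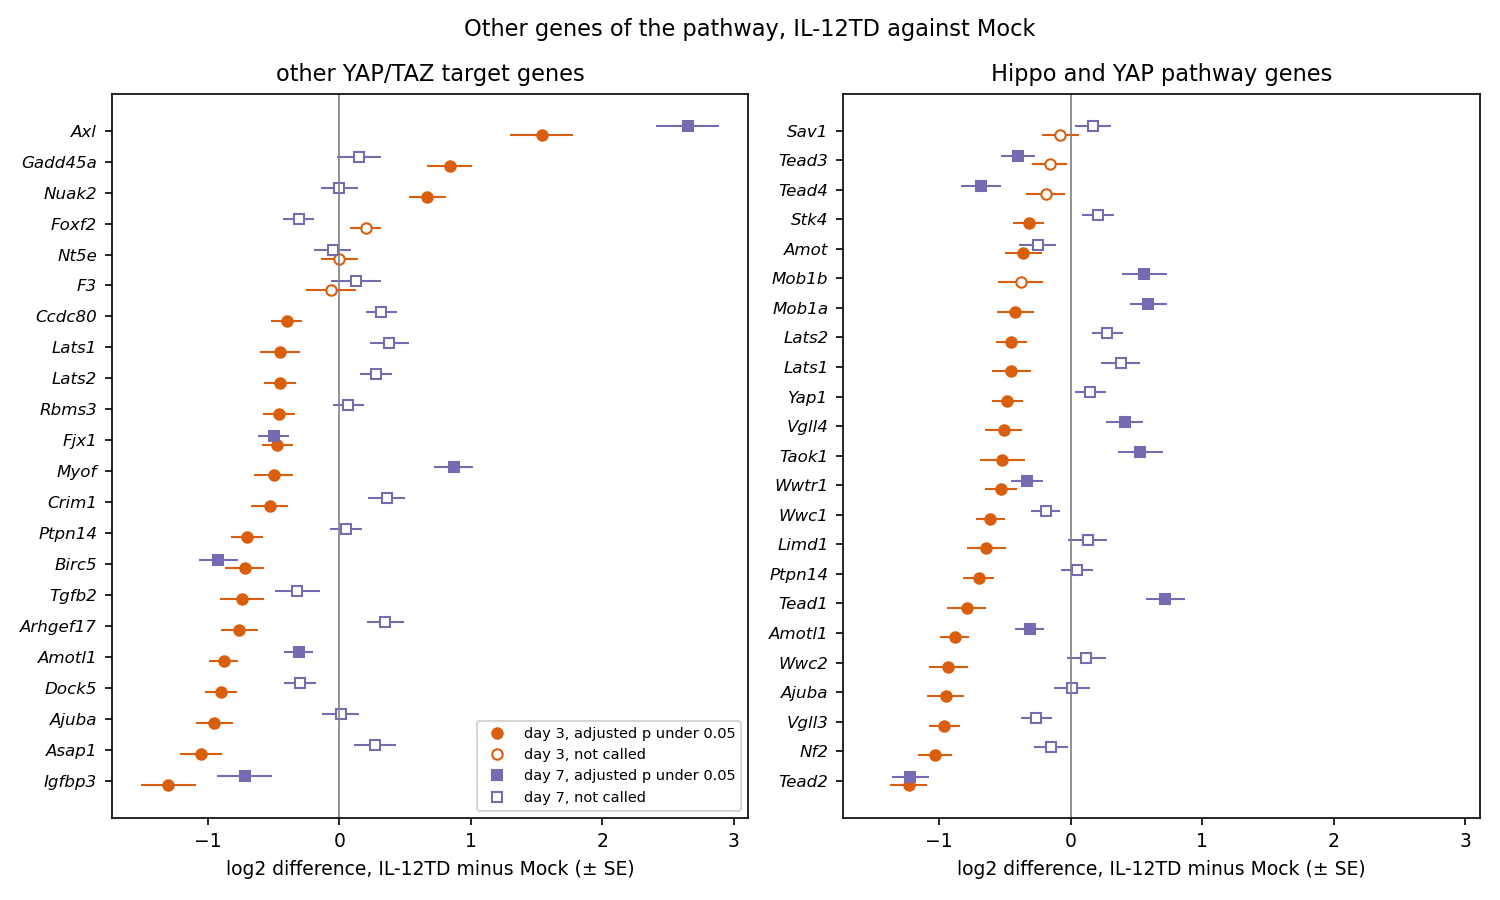
Log2 difference of IL-12TD from Mock (x axis, ± SE) for the other YAP and TAZ target genes (left) and the Hippo pathway genes (right), at day 3 (circles) and day 7 (squares), filled where the adjusted p was under 0.05. Day 3 symbols lie mostly left of 0 (medians -0.49 and -0.52), and day 7 symbols scatter on both sides (0.06 and 0.12).

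The relatives and receptors of the members gave a mixed picture. Of the other CCN genes, Ccn5, which lacks the C-terminal domain of its family, was 0.39 ± 0.15 higher at day 3 (adjusted p = 0.0373). That call was lost without replicate 3 or 4 of either day 3 group, when the difference ran from 0.26 to 0.35. Ccn6 differed by 0.07 and 0.02. Thbs2, the closest relative of Thbs1, ran the other way at day 3 with a fall of 1.23 ± 0.18 (adjusted p = 7.81e-06). Of 14 receptors of CCN proteins and thrombospondin 1, 3 were higher and 6 lower at day 3, and 7 were higher and 0 lower at day 7, or 4 and 0 without replicate 4 of either day 7 group. Of the 14, 1 is also in the pan-leukocyte list below and 1 in the macrophage list, and both were called higher at day 7. Cd47, the receptor that thrombospondin 1 binds on many cells, was higher at both days (1.09 ± 0.15 and 1.41 ± 0.15, adjusted p = 2.54e-06 and 5.24e-08). Itga6, an integrin chain bound by Ccn1, fell by 1.36 ± 0.17 at day 3 (adjusted p = 4.28e-07). Cd36, the scavenger receptor for thrombospondin 1, differed by -0.12 ± 0.36 at day 3 and 1.16 ± 0.36 at day 7 (adjusted p = 0.0211). The day 7 difference of Cd36 missed the threshold without replicate 4 of Mock at that day (0.85) or without IL-12TD day 7 replicate 2 or 4 (1.04 and 0.97).

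Genes of neighbouring pathways that share targets with the members were counted the same way. Of 19 Wnt genes, 6 were higher and 9 lower at day 3 and 3 higher and 1 lower at day 7. Ctnnb1, which encodes beta-catenin, fell by 0.84 ± 0.14 at day 3 (adjusted p = 2.45e-05) and differed by 0.37 ± 0.14 at day 7 (adjusted p = 0.0502). The secreted Wnt modulators Sfrp1 (1.56 ± 0.17, adjusted p = 7.33e-08) and Dkk3 (1.36 ± 0.15, adjusted p = 8.79e-08) rose at day 7. The day 7 Wnt count was 6 higher and 1 lower without Mock day 7 replicate 1, and the day 3 count 3 higher and 5 lower after the second quantile normalization. Of 18 TGF-beta genes, 2 were higher and 8 lower at day 3, or 3 and 3 after that normalization, and 4 were higher and 2 lower at day 7. Tgfb1 was higher at both days (0.55 ± 0.16 and 0.74 ± 0.16, adjusted p = 0.00817 and 0.00136), and its receptor Tgfbr1 fell by 1.05 ± 0.20 at day 3 (adjusted p = 0.000132). Of 18 immediate early genes, the class to which Ccn1 belongs, 11 were higher and 1 lower at day 3 (median 0.58) and 5 higher and 0 lower at day 7 (median -0.10). Without Mock day 7 replicate 2 the day 7 count was 3 higher. Examples were Atf3 (1.63 ± 0.23, adjusted p = 2.89e-06) and Egr1 (1.20 ± 0.15, adjusted p = 3.72e-07) at day 3 and Dusp1 (1.07 ± 0.21, adjusted p = 0.000438) at day 7.

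Cell type markers were compared between the same groups. The mean log2 intensity over 12 pan-leukocyte markers ran from 8.30 to 8.77 over the IL-12TD day 3 arrays, from 6.76 to 7.16 in Mock and from 5.94 to 7.82 without treatment. At day 7 it ran from 7.81 to 8.37 in IL-12TD, from 6.03 to 6.89 in Mock and from 5.30 to 6.12 without treatment. All 12 were called higher than Mock at each day, with a median of 1.66 both times, and Ptprc, the common leukocyte antigen, rose by 2.14 ± 0.28 and 2.59 ± 0.28. Of 11 macrophage and monocyte markers, 1 was higher at day 3, and 6 were without IL-12TD day 3 replicate 3. At day 7, 7 were higher, or 4 without IL-12TD day 7 replicate 1 or 4, and equally without replicate 2 or 4 of Mock at that day. Of 13 melanocyte markers, 9 were lower and 0 higher at day 3 (array means from 9.05 to 9.27 in IL-12TD, from 9.67 to 9.80 in Mock and from 9.69 to 9.81 without treatment). The day 7 melanocyte means overlapped (from 9.14 to 9.60, from 8.92 to 9.89 and from 9.26 to 9.69), with 1 lower and 0 higher, and 6 were higher without Mock day 7 replicate 1.

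Markers of stromal and other cells, which can also make CCN proteins and thrombospondin 1, were counted too. The background was again 43.2% of all genes at day 3 and 21.7% at day 7. Of 12 fibroblast markers, 1 was higher and 4 lower at day 3 and 2 higher and 2 lower at day 7, with array means from 5.68 to 5.88 in IL-12TD, from 5.69 to 5.93 in Mock and from 5.5 to 5.73 without treatment at day 7. Col1a1, the main collagen chain, differed by -0.05 ± 0.17 at day 3 (adjusted p = 0.841) and was called lower at day 7 (-0.47 ± 0.17, adjusted p = 0.046). Leaving out single arrays gave from 1 to 2 lower fibroblast markers at day 7. Of 12 endothelial markers, 2 were higher and 5 lower at day 3 and 1 higher and 3 lower at day 7, when array means ran from 4.85 to 4.93 in IL-12TD, from 5.04 to 5.20 in Mock and from 4.87 to 4.98 without treatment. Without Mock day 3 replicate 1 the day 3 endothelial count was 0 higher and 3 lower, and without replicate 2 it was 1 and 3. The day 7 count was 0 and 2 without Mock replicate 1 or without IL-12TD replicate 2 or 4. Of 8 pericyte markers, 0 were higher and 1 lower at each day. Of 6 platelet markers, a source of stored thrombospondin 1 protein, 1 was higher at day 3 and 1 lower at day 7, and of 10 keratinocyte markers 1 was lower at each day. Of 11 skeletal muscle markers, which lie near the tissue where Ankrd1 is known, 2 were higher at day 3 and 5 at day 7. Leaving out single arrays moved each of these pericyte, platelet, keratinocyte and muscle counts by at most 1. The 2 other muscle ankyrin repeat genes, Ankrd2 and Ankrd23, were not called at either day (Ankrd2 -0.35 ± 0.14 at day 3, adjusted p = 0.0533). No value on this scale is 0, and the part of these cell types in the differences of the members was not tested.

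**Figure D4:**
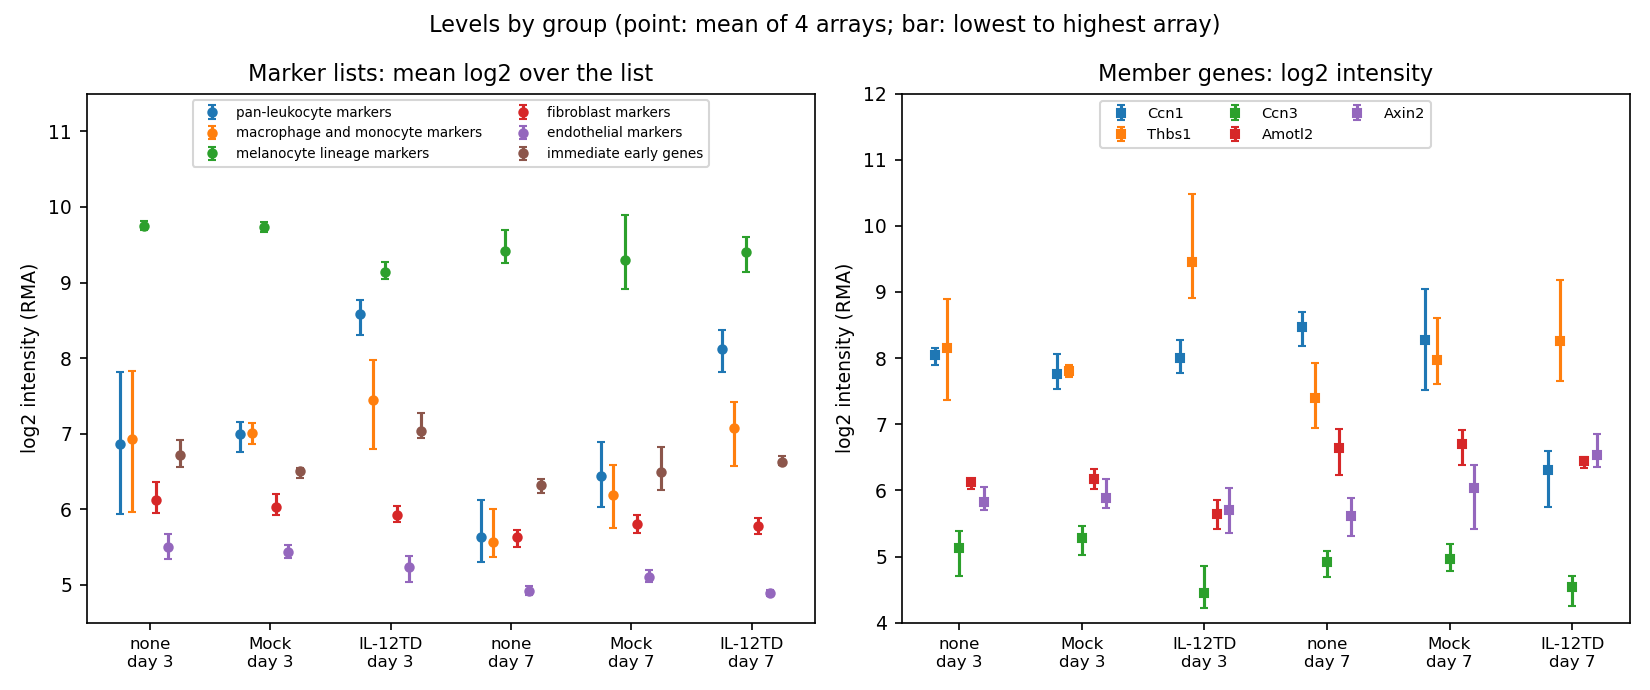
Mean log2 intensity of 6 lists (left) and log2 intensity of 5 members (right) by group (x axis; none is no treatment), as the mean of 4 arrays with a bar from the lowest to the highest array. Leukocyte markers are at 8.58 and 8.12 in IL-12TD tumours at days 3 and 7, and Ccn1 is at 8.0 and 6.31.

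The genes whose profile over the 24 arrays lay closest to each member, after each gene was centred on its own mean, differed from member to member. Likeness was measured as the root mean square difference, and it is a description over arrays that share groups. For Ccn1 they were Ndrg2 (0.36), Rpl8 (0.41) and Ppp1r14b (0.41), against a spread of 0.77 for Ccn1 around its own mean. Rpl8, a ribosomal protein gene, averaged from 10.45 to 10.72 in the other 5 groups and 9.39 in IL-12TD tumours at day 7. For Thbs1 they were Nlrp3 (0.34), an inflammasome sensor, Inhba (0.34), a TGF-beta family ligand, and Cd14 (0.35), a monocyte receptor, against 0.80. Cd14 averaged 6.82 in IL-12TD tumours at day 3 and from 4.71 to 5.17 in the other 5 groups. For Amotl2 they were Cntrob and Rexo1 (0.12 each) and Atn1 (0.15), against 0.39, the closest likeness relative to spread among the members. For Ccn2 they were Ahsa2 (0.20), Hmgb3 (0.21) and Me1 (0.21), for Ccn3 Klhl23 (0.19), Map2 (0.19) and St6galnac3 (0.21), each against 0.36, and for Axin2 Nudt7 (0.22), Plekhm1 (0.23) and Plagl2 (0.24), against 0.39. Ccn4 and Ankrd1 varied so little, at 0.24 each, that their nearest genes at 0.15 to 0.18 carry little. Only genes outside the set were ranked.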

How the data were processed

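RNA of 24 whole tumours was hybridised to Affymetrix arrays, 1 array per tumour sample. The authors deposited 1 log2 intensity per probeset and array, summarised by RMA according to the submitters' processing notes. Software and version are not given in the sources used here, nor is it stated whether all arrays were normalized together. The log2 scale was read from the values themselves, whose range is 1.009 to 14.367. Of 35556 probesets, 21789 list 1 gene, 1621 several and 12146 none, and only the first kind was used. RefSeq symbols were assigned to 21698 by Entrez ID and 91 kept the platform symbol. For the 999 genes with more than 1 probeset the brightest on average was taken, which left 19938 genes. No 2 arrays were identical (0 pairs).

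A mean for each of the 6 groups was fitted with limma 3.58.1 (R 4.3.3; lmFit, eBayes, two-sided), with 10 contrasts and Benjamini-Hochberg adjustment over all genes at 0.05. The fit was tested on simulated data. The members, the other gene lists and the rule for named genes were chosen with earlier results of these data known. From each other list the text names up to 2 genes per day with the smallest adjusted p for IL-12TD against Mock, plus a fixed set of regulators, receptors and markers. Tead3, Tead4 and Dct were named outside that rule. Alternatives were a second quantile normalization, centring arrays on their median, leaving out dim genes, a trended and robust prior, array weights, fitting only the compared groups, averaging the probesets of each gene, testing all probesets, the replicate number as a block, and leaving out each array in turn. For each comparison, only the runs that left out an array of its own groups were counted. The alternatives for the other lists and their genes were added after seeing the data. The number of arrays limits the precision. The replicate numbers were checked for pairing, and the deviations of same-numbered arrays correlated between -0.158 and 0.161 on average per pair of groups, so no block entered the fit.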

Additional observations from a re-analysis of the deposited data

Results flagged for a closer look

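In the 48 sets of 4 arrays (8 genes in 6 groups), 1 array stood apart by its gap to the nearest other array relative to the range of its group: Ccn4 in Mock day 7, where replicate 3 read 5.92 and the other 3 read 5.28 to 5.36. Chance gives such a gap in about 1 of 20 groups.

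For 3 members the effect of IL-12TD against Mock differed between day 7 and day 3 by the interaction term of limma. The background was 42.5% of all genes called. The change was -2.18 for Ccn1, -1.37 for Thbs1 and 0.68 for Axin2, with adjusted p = 2.09e-05, 0.0216 and 0.0329 over all genes. For Ccn1 each of the 4 IL-12TD arrays at day 7 was below each Mock array, for Thbs1 each at day 3 was above each Mock array, and for Axin2 the groups overlapped at both days.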

How the results depend on the processing

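Of 710 values of members under an alternative, 658 kept their direction and side of the threshold, 23 lost a call, 18 gained one and 11 changed sign. When each array of the compared groups was left out in turn, 624 of 704 did so, 40 lost a call, 10 gained one and 30 changed sign. No called difference of a member changed sign in these runs.

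The second quantile normalization gave 5586 genes called for IL-12TD against Mock at day 3 (8610 as reported), 4998 for the interaction (8467), 9 for Mock against no treatment at day 7 (0), and 2 members for IL-12TD against no treatment at day 3 (5) and 2 for day 7 against day 3 without treatment (1). It ended the calls of Axin2 (0.44) and Ccn3 (-0.36) against Mock at day 7, of Amotl2 (-0.33), Ccn2 (-0.17) and Ankrd1 (0.23) against no treatment at day 3, and of the Axin2 interaction (0.51), and it gave Ccn1 calls for day 7 against day 3 of 0.78 without treatment and 0.96 in Mock. It turned the sign of Ccn1 (0.21) and Ccn4 (-0.02) against no treatment at day 3, Ccn3 for Mock at day 7 (-0.08), Ccn2 (0.15) and Ankrd1 (-0.15) between days in untreated and Mock tumours, the Amotl2 interaction (-0.03), and, against Mock, Ccn6 (-0.12), Cd36 (0.13) and Col1a1 (0.22) at day 3 and Yap1 (-0.04) at day 7. The share of called genes that were higher went from 59.4% (2573 higher, 1760 lower) to 47.1% (2289, 2574) for IL-12TD against Mock at day 7, from 57.8% to 45.4% against no treatment at day 7, and from 31.8% to 46.2% for day 7 against day 3 without treatment. Day 3 list counts after the second quantile normalization stand beside its 5586 called genes of 19938, and not beside 43.2%.

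Centring on the median gave 1 gene for Mock at day 7, turned Ccn3 (-0.04) and Amotl2 (-0.03) there, and put the higher share at 39.3% against no treatment at day 7; for day 7 against day 3 it was 36.9% in Mock and in IL-12TD (46.8% and 48.4% as reported). The median of all genes shifted to at most -0.136. Array weights gave 7947 genes against Mock at day 7 (4333), 1 and 6 for Mock against no treatment at days 3 and 7, 3 members against no treatment at day 3 and 2 for day 7 against day 3 without treatment. They turned Ccn4 for Mock at day 3 (0.04), Amotl2 for Mock at day 7 (-0.03), the Ccn2 interaction (0.04) and Ccn6 at day 7 (-0.01). Fitting only the compared groups left 2 members against Mock at day 7 (4) and gave 2 for day 7 against day 3 without treatment. With all probesets 1 member was called against Mock at day 7, and 6230 probesets against no treatment at day 7, 12349, 16122 and 15710 for day 7 against day 3 in untreated, Mock and IL-12TD tumours, where more features entered the count. The cause of the other shifts was not tested.

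Leaving out single arrays gave 1 to 3 members against Mock at day 7, 3 to 5 against no treatment at day 3, 1 to 2 and 1 to 3 between days in untreated and Mock tumours, 1 to 3 for the interaction, and 0 to 7 and 0 to 9 genes for Mock against no treatment at days 3 and 7. Small uncalled differences crossed 0. Against Mock at day 7 the ranges were -0.03 to 0.13 for Ankrd1, -0.02 to 0.50 for Thbs1 and -0.13 to 0.11 for Ccn6, and at day 3 -0.04 to 0.34 for Ccn6, -0.35 to 0.22 for Cd36 and -0.17 to 0.04 for Col1a1. Against no treatment at day 3 they were -0.14 to 0.03 for Ccn1 and -0.01 to 0.14 for Ccn4. For Mock against no treatment they were at day 3 -0.16 to 0.01 for Ccn2, -0.12 to 0.04 for Ccn4, 0.00 to 0.10 for Amotl2 and -0.05 to 0.12 for Axin2, and at day 7 -0.46 to 0.04 for Ccn1, -0.02 to 0.12 for Ccn3 and -0.07 to 0.17 for Amotl2. Between days they were -0.04 to 0.29 for Thbs1 in Mock and -0.13 to 0.03 for Ccn4 in IL-12TD, and for the Ccn2 interaction -0.18 to 0.12.

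With the replicate number as a block, 8624 genes and 4 members were called against Mock at day 3 and 4354 and 3 at day 7, where Axin2 missed the threshold (0.50, adjusted p = 0.0515), and Thbs1 was called against no treatment at day 7 (0.86, adjusted p = 0.0481). The numbers were not taken as pairs, since the deviations of same-numbered arrays correlated weakly. Between day 7 groups their mean correlation was 0.094 to 0.161, beside -0.055 to -0.03 for arrays of different numbers.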
